A study of Mus musculus with 62 samples.

Results

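The 33 genes described here encode subunits of the glutamate receptors and the scaffold proteins that hold them at the synapse. They were taken as a list by their mouse Entrez identifiers from the prefrontal cortex and striatum count tables, in which 18149 genes were listed in all. All 33 were listed in both tables and all 33 passed the filter on low counts in both regions, with no count below 74 in any library. The list held 4 AMPA, 5 kainate and 6 NMDA receptor subunits, 6 metabotropic receptors, 1 delta receptor, 3 transmembrane AMPA receptor regulatory proteins (TARPs), 5 scaffolds of the postsynaptic density and 3 Homer scaffolds. RNA was sequenced from tissue punches of female C57BL/6 mice, whose ages the labels did not state. The mice had received the MARBLES mixture of polychlorinated biphenyls (PCBs, persistent industrial chemicals) by mouth at 0.1 mg/kg, at 1 mg/kg or at 6 mg/kg, and controls had received vehicle alone. Each region had 4 vehicle, 5 low-dose (0.1 mg/kg), 6 mid-dose (1 mg/kg) and 6 high-dose (6 mg/kg) libraries. Libraries are named by the animal number in their titles. The labels did not say that each library came from a separate animal or that a number marks the same animal in both regions, so p-values measure the spread between these libraries.

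Glutamate is the main excitatory transmitter of the forebrain. AMPA, kainate and NMDA receptors are ion channels built of 4 subunits each, and the choice of subunits sets their speed and calcium entry, whereas metabotropic receptors signal through G proteins. TARPs carry AMPA receptors to the membrane, and Dlg4, Dlgap1, the Shank proteins and the Homer proteins form a layered scaffold that ties the receptors to each other and to intracellular calcium stores. The prefrontal cortex contains many glutamatergic projection neurons, whereas the projection neurons of the striatum are GABAergic and receive glutamatergic input from the cortex and thalamus.

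Promoter sequence is shown for the 3 members with the smallest p for a dose slope in the striatum, Gria2 and Homer1, whose fitted slopes were negative, and Grin2d, whose slope was positive. The windows are the 250 bases before a RefSeq transcript start in assembly GRCm38.p6, and the table of RefSeq windows used here held one for 22 of the 33 members. They lie at chr3:80802836-80803085 on the minus strand for Gria2, chr13:93303507-93303756 on the plus strand for Homer1 and chr7:45866682-45866931 on the minus strand for Grin2d. The Homer1 window ends directly before the first base of the gene, whereas the Gria2 and Grin2d windows precede a transcript start inside the gene. Capitals mark TGACG, the core of the cyclic AMP response element, searched on both strands.
Gria2: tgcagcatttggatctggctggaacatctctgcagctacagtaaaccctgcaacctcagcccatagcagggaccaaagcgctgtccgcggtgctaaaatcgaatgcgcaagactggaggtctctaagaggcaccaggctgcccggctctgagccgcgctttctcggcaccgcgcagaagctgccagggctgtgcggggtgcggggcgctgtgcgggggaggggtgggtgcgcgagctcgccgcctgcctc
Homer1: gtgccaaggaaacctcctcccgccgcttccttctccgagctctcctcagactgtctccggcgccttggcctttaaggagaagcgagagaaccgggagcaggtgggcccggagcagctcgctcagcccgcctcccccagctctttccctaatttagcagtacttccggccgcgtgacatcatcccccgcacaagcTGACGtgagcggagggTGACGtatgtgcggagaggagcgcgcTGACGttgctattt
Grin2d: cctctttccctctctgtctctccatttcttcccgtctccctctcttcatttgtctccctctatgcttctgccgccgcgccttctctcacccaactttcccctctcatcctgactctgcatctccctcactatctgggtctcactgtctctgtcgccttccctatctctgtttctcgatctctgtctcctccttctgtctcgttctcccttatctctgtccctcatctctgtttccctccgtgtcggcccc
The Homer1 window held 3 TGACG matches and the other two held none. TGACG was present in 17.77% of all 32851 windows of this length and in 2 of the 22 member windows. The full element TGACGTCA was in 1.55% of all windows and in no member window. GC content was 64.8% in the Gria2 window, 62.4% in that of Homer1 and 54.4% in that of Grin2d, against a median of 62.6% over the member windows and 52.4% over all windows.

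Library totals were 8.72 to 12.14 M counts in the prefrontal cortex and 8.28 to 12.02 M in the striatum, where the high-dose totals (8.55 to 9.2 M) lay below the vehicle totals (10.15 to 10.46 M). Expression is given as CPM, each gene's count per 1 M of the library total, with edgeR's TMM factors over both regions. The relation of a library's deviations to transcript GC content, taken as a Spearman correlation across genes, was positive in all high-dose striatum libraries (0.298 to 0.437) and ranged from -0.421 to 0.403 in vehicle striatum. This GC slope was -0.338 to -0.027 at 0.1 mg/kg and -0.588 to 0.293 at 1 mg/kg in the striatum. The ranges at 6 and 0.1 mg/kg did not overlap, so GC slope and dose cannot be told apart between those groups. Of the 7 markers of cortical glutamatergic neurons, the summed level was 1498 to 2574 CPM in the prefrontal cortex and 106 to 1749 CPM in the striatum, and 4 striatum libraries exceeded 600 CPM (vehicle animal 8 and mid-dose animals 46, 48 and 50). The 8 markers of striatal projection neurons summed to 971 to 3104 CPM in the prefrontal cortex and 2687 to 6452 CPM in the striatum, and none of the 8 was at 0 in vehicle prefrontal cortex. For vehicle animal 8 this sum was 3104 CPM in the prefrontal cortex library and 2978 CPM in the striatum library. The comparisons between regions were not adjusted for marker levels, so the part of mixed tissue in them was not tested. In vehicle mice Drd2, the dopamine receptor of indirect-pathway neurons, was at 45.6 to 123 CPM in the prefrontal cortex and 112 to 279 CPM in the striatum. The sum of 4 choroid plexus markers in the striatum reached 622.6 CPM in vehicle, 1111 CPM at 0.1 mg/kg, 4132 CPM at 1 mg/kg and 2454 CPM at 6 mg/kg. The group medians were 64.06, 18.55, 66.2 and 175.6 CPM in that order. In bulk tissue, fewer cells of a type and less RNA per cell cannot be told apart.

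Levels were compared between members in vehicle tissue after scaling to the length of the longest transcript. Grin1, the obligatory NMDA receptor subunit, had the highest level per kilobase in both regions, 169 ± 14.4 CPM per kb (SD, n = 4) in the prefrontal cortex against 155.6 ± 21.7 for the striatum. Dlg4, which encodes the scaffold PSD-95, came next with 149.8 ± 5.04 and 139.2 ± 22.2 CPM per kb. The Grin1 and Dlg4 ranges did not overlap in the prefrontal cortex and overlapped in the striatum. Below them, Dlgap1, Grik5, Gria1 and Gria2 followed in the prefrontal cortex at 82.8, 78.9, 68.4 and 59.2 CPM per kb, each overlapping its neighbour in the order. In the striatum the third to sixth places went to Gria1, Grik5, Shank3 and Gria2 at 87.6, 81, 62.6 and 45.8 CPM per kb, and of the neighbours in this order only Shank3 and Gria2 did not overlap. Among the pore-forming AMPA subunits Gria4 was the lowest in both regions, with 18 CPM per kb in the prefrontal cortex against 13.4 in striatal tissue. The lowest members were Grik1, a kainate subunit, at 3.48 CPM per kb in the prefrontal cortex and Grm8, a presynaptic metabotropic receptor, at 2.74 in the striatum. Within the kainate family Grik5 stood above Grik3 (18.8 CPM per kb in the prefrontal cortex, 17.2 in the striatum), Grik2 (6.25 and 7.99) and Grik4 (4.12 and 4.17). The NMDA modulators were all far below Grin1, with Grin2b at 24.1 and 13.9 CPM per kb, Grin2c at 13.4 and 13.5 and Grin2d at 5.03 and 10.01 in the same order of regions. Grin3a was at 7.85 CPM per kb in the striatum. Grm5 was the highest metabotropic receptor, at 33.1 and 36.4 CPM per kb, followed by Grm3, a receptor also made by astrocytes, at 20.5 and 21.6. Of the TARPs, Cacng3 and Cacng8 were at 46.1 and 42.8 CPM per kb in the prefrontal cortex and Cacng2 at 17.1. Homer1 led its family with 52.3 and 32.2 CPM per kb, above Homer3 (7.91 and 8.43) and Homer2 (5.57 and 3.43). Together the 33 members made up 0.724% ± 0.01 of all counts in the vehicle prefrontal cortex and 0.628% ± 0.04 in the vehicle striatum (SD, n = 4).

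**Figure D1:**
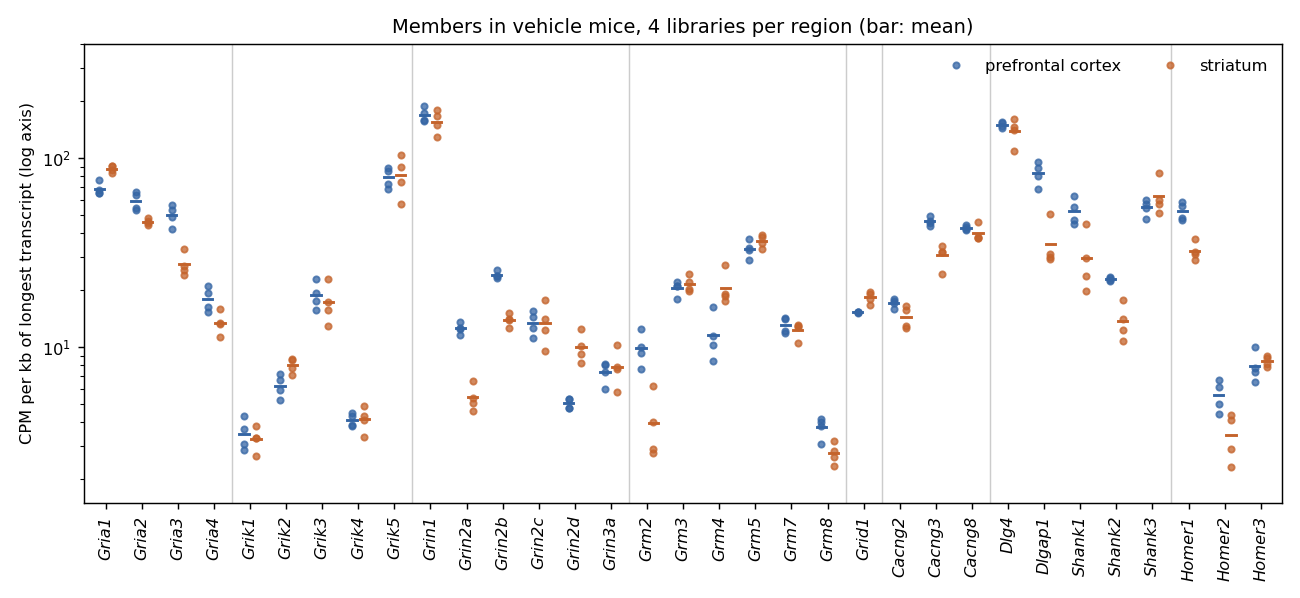
Level of each member in the 4 vehicle libraries of each region, in CPM per kb of the longest transcript on a log axis. Blue points are the prefrontal cortex, orange points the striatum, short bars the means and vertical lines the borders between gene groups. Grin1 and Dlg4 stand above the other members in both regions, and Grm2, Grin2a and Dlgap1 show the widest gaps between the regions towards the prefrontal cortex.

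Striatum was compared with prefrontal cortex in vehicle mice to describe the members' levels in the punches of each region, which held markers of both. Of the 33 members, 16 passed an adjusted p of 0.05 in edgeR's quasi-likelihood test (Benjamini-Hochberg over all genes), 4 higher and 12 lower in the striatum. That is 48.5% of the members against 21.4% of the 15402 genes tested, of which 10.6% were higher and 10.7% lower in the striatum. The median log2 fold change was -0.11 over the members and 0.02 over all genes. The vehicle groups did not overlap for 14 of the 33 members and for 23.9% of 15464 genes expressed above 1 CPM in at least 4 libraries. Leaving out each vehicle animal in turn gave 9 to 14 members, 9 without animal 3 and 10 without animal 7, while the share of all genes called ran from 13.6% to 20.6%. Calls for 9 of the 16 held each time (Gria1, Gria3, Grin2a, Grin2d, Grm4, Cacng3, Dlgap1, Shank2 and Homer1).

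The AMPA subunits split. Gria1 was higher in the striatum, with 459.7, 503, 479 and 501 CPM in animals 3, 4, 7 and 8 against 363, 373, 359.5 and 422 CPM in the prefrontal cortex. All 4 striatal values lay above all 4 cortical ones, and the log2 fold change was 0.36 ± 0.09 (SE, adjusted p = 0.00298, edgeR). Gria3 ran the other way, with 139.7, 126, 133 and 172 CPM in the striatum against 292, 275.5, 253 and 220.1 CPM in the prefrontal cortex. The Gria3 groups did not overlap and the log2 fold change was -0.87 ± 0.14 (adjusted p = 2.2e-05, edgeR). Gria4 was lower in the striatum by a smaller margin (-0.42 ± 0.12, adjusted p = 0.0119, edgeR). Its groups overlapped, and it was not called without animal 3 or 7 (adjusted p of 0.13 and 0.0621). Gria2, whose subunit blocks calcium entry in most AMPA receptors, had values of 458 to 497 CPM in the striatum and 547 to 682 CPM in the prefrontal cortex. Its groups did not overlap, yet its log2 fold change of -0.37 ± 0.16 did not pass (adjusted p = 0.0905, edgeR). Gria2 passed with the replicate block (adjusted p = 0.0342, edgeR) and when only the 2 vehicle groups were fitted (adjusted p = 0.0146, edgeR). The ratio of Gria1 to Gria2 CPM, not scaled to length and averaged on the log2 scale, was 0.62 in the vehicle prefrontal cortex and 1.02 in the vehicle striatum.

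Of the TARPs, Cacng3 was lower in the striatum (67.5 to 95.1 against 121 to 137 CPM, log2 fold change -0.60 ± 0.14, adjusted p = 0.00139, edgeR). Cacng2, which encodes stargazin, was lower by -0.25 ± 0.09 (adjusted p = 0.0406, edgeR), with overlapping groups and a call that was lost without animals 3, 4 or 7 (adjusted p of 0.287, 0.276 and 0.0626). Cacng2 was also not called by edgeR with the replicate block (adjusted p = 0.0536), when only the 2 vehicle groups were fitted (adjusted p = 0.111) or without the filter on low counts (adjusted p = 0.0539). Cacng8 did not pass (-0.10 ± 0.10). None of the 5 kainate subunits passed in edgeR, and none had an unadjusted p below 0.05. Their log2 fold changes were -0.09 ± 0.19 for Grik1, 0.36 ± 0.18 for Grik2, -0.13 ± 0.20 for Grik3, 0.02 ± 0.13 for Grik4 and 0.03 ± 0.17 for Grik5, and DESeq2 also called none of them. Grik2 was called higher in the striatum with the GC and length correction (0.555, adjusted p = 9.71e-05, edgeR) and when only the 2 vehicle groups were fitted (0.36, adjusted p = 0.0323, edgeR).

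The NMDA subunits that modify the obligatory Grin1 differed by region in both directions. Grin2a, which speeds receptor decay, was at 73.6, 67.1, 78.9 and 97 CPM in the striatum and 199, 184, 183 and 170.0 CPM in the prefrontal cortex. No striatal value reached a cortical one, and the log2 fold change was -1.22 ± 0.19 (adjusted p = 1e-05, edgeR). Grin2b was lower as well, at 302 to 362 CPM against 558 to 617 CPM (-0.79 ± 0.25, adjusted p = 0.0208, edgeR). The Grin2b call was lost without any single vehicle animal (adjusted p 0.0559 to 0.0873), although its groups did not overlap. Grin2d, a subunit typical of interneurons in the adult forebrain, was higher in the striatum, with 44.9, 67.4, 55.1 and 50.1 CPM against 25.9, 25.8, 29 and 28.8 CPM (0.99 ± 0.17, adjusted p = 3.4e-05, edgeR). The summed level of 6 markers of GABA interneurons was also higher there, 1572 to 1786 CPM against 911 to 1199 CPM, and its part in the Grin2d difference was not tested. That list holds Gad1 and Gad2, which striatal projection neurons also express, so its sum does not mark interneurons alone. Grin1 (-0.12 ± 0.11), Grin2c (0.00 ± 0.14) and Grin3a (0.09 ± 0.18) did not pass.

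Among the metabotropic receptors Grm2 and Grm4, both presynaptic receptors that lower transmitter release, moved apart. Grm2 was at 13, 18.9, 13.6 and 29.3 CPM in the striatum and 58.6, 44, 47.3 and 36.2 CPM in the prefrontal cortex, with no overlap (-1.32 ± 0.37, adjusted p = 0.00929, edgeR). It was not called without animal 3 or 7 (adjusted p of 0.11 and 0.0681). Grm4 was at 87.7, 80.9, 125 and 85.4 CPM in the striatum and 39, 47.4, 52.6 and 74.8 CPM in the prefrontal cortex (0.83 ± 0.15, adjusted p = 7.5e-05, edgeR). All 21 animal numbers had a higher Grm4 level in the striatum than in the prefrontal cortex. Grm5, the main postsynaptic group I receptor of the forebrain, differed by 0.14 ± 0.21, Grm3 by 0.07 ± 0.15, Grm7 by -0.09 ± 0.12 and Grm8 by -0.46 ± 0.18 on the log2 scale, and none of these passed. Grm8 passed with the replicate block (adjusted p = 0.0366, edgeR) and when only the 2 vehicle groups were fitted (adjusted p = 0.0309, edgeR). Grid1, the delta receptor that binds cerebellins at synapses, was higher in the striatum (0.26 ± 0.10, adjusted p = 0.0463, edgeR). Its groups did not overlap, with 95.6 to 112 CPM against 86.6 to 87.9 CPM, but leaving out any vehicle animal raised its adjusted p to 0.0628 to 0.188, and edgeR did not call it with DESeq2 size factors (adjusted p = 0.051) or without the filter on low counts (adjusted p = 0.0579).

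Scaffold transcripts were lower in the striatum or did not pass, and none was called higher. Dlgap1, which links PSD-95 to the Shank proteins, showed the smallest p of any member. It was at 214, 209.9, 222 and 360.0 CPM in the striatum and 678, 635, 573 and 488 CPM in the prefrontal cortex (-1.24 ± 0.18, adjusted p = 4e-06, edgeR). Shank1 (-0.83 ± 0.23, adjusted p = 0.00779, edgeR) and Shank2 (-0.74 ± 0.19, adjusted p = 0.00359, edgeR) were lower, whereas Shank3 differed by 0.19 ± 0.15 and did not pass. Shank2 lay at 96.9 to 160.2 CPM in the striatum and 200.9 to 211 CPM in the prefrontal cortex, with no overlap. Shank1 overlapped, since striatal animal 8 reached 442 CPM while the lowest cortical value was 439.5 CPM, and it was not called without animal 3 (adjusted p = 0.14, edgeR). Dlg4 differed by -0.11 ± 0.11 and did not pass. Homer1, which couples group I metabotropic receptors to calcium stores, was at 177, 165.5, 181 and 213 CPM in the striatum and 274, 332, 269 and 319.6 CPM in the prefrontal cortex (-0.70 ± 0.17, adjusted p = 0.00219, edgeR). Homer2 was also lower (-0.70 ± 0.22, adjusted p = 0.0152, edgeR), although not called without animal 3 or 7, and Homer3 differed by 0.09 ± 0.14 without passing. Gene counts do not separate the long Homer1 proteins from the short activity-induced Homer1a.

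**Figure D2:**
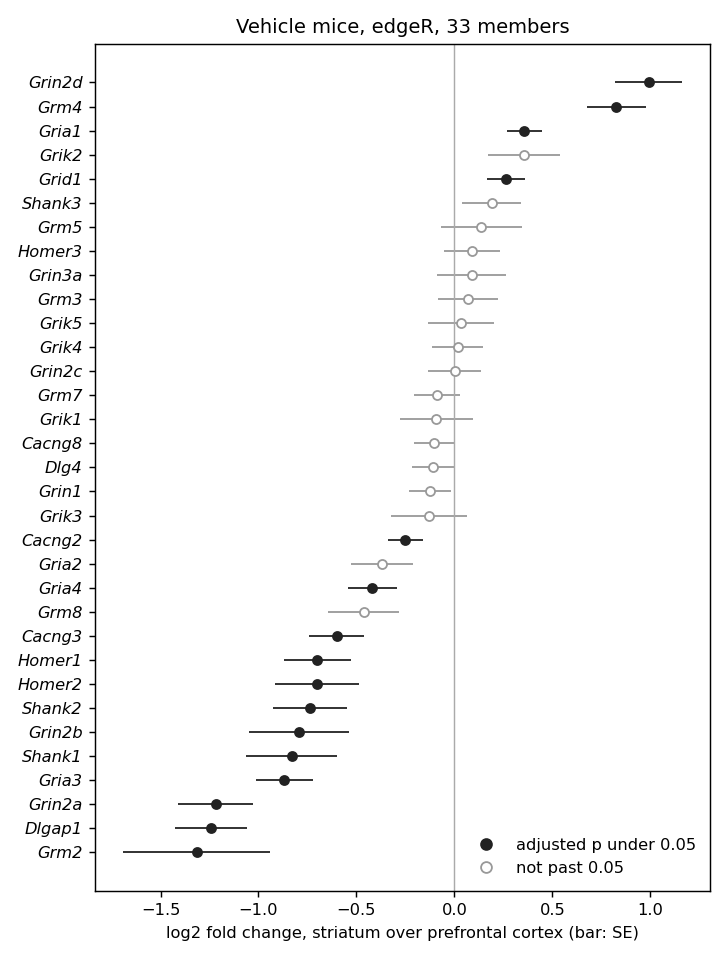
Log2 fold change of each member in vehicle mice, striatum over prefrontal cortex, with its standard error. Filled points passed an adjusted p of 0.05 in edgeR. The filled points reach from -1.32 for Grm2 to 0.99 for Grin2d, and the kainate subunits are all open, with Grik2 at 0.36 the farthest of them from 0.

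Of 58 other genes of glutamate synapses, chosen as a list, 21 passed, 4 higher and 17 lower in the striatum, or 36.2% against the 21.4% of all genes, with a median log2 fold change of -0.14. Among those with the smallest p were Nptxr, a pentraxin receptor that clusters AMPA receptors (-1.91 ± 0.21), and Cnih3, an AMPA receptor auxiliary subunit (-1.41 ± 0.22), both lower in the striatum.

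Cortical marker levels varied within the striatum group, so the members were set against them over the 21 striatum libraries of all doses. Of the 7 markers, Slc17a7 alone was at 45.3 to 892.7 CPM in vehicle striatum, where the sum was 120.1 to 1184 CPM. The sum therefore leans on that gene. On log2 scales, Dlgap1 rose with the summed cortical marker level, with Pearson r = 0.83 (permutation p = 2e-05, adjusted over the 33 members 0.00066) and Spearman rho = 0.78 (permutation p = 8e-05, adjusted 0.00264). Without the 2 libraries farthest from the median marker level, r was 0.67, and centred on the dose groups over all 21 libraries it was 0.76. Gria3 followed with r = 0.72 (permutation p = 0.00036, adjusted 0.00594) and rho = 0.64 (permutation p = 0.00213, adjusted 0.0348), with r = 0.60 without those libraries and 0.64 centred on dose groups. No other member passed by Pearson's r, although centred on dose groups r was 0.72 for Grik5, 0.68 for Grin1, 0.66 for Grin2c and 0.65 for Cacng3, whose uncentred r was 0.24 to 0.38. Grin2a had r = 0.59 (permutation p = 0.00551, adjusted 0.0606), and its rank correlation passed (rho = 0.62, permutation p = 0.00316, adjusted 0.0348). Grik1 ran the other way and also passed by rank only, with rho = -0.59 (permutation p = 0.00595, adjusted 0.0491), r = -0.42 (permutation p = 0.0566, adjusted 0.192) and r = -0.61 centred on dose groups. Shank1 had r = 0.55 (permutation p = 0.0111, adjusted 0.0805), which rested on the 2 libraries farthest out, because r was 0.00 without them. Striatal animals 8 and 50, both with marker sums over 600 CPM, had the highest Dlgap1 levels of their dose groups. The part of cortical tissue in these values was not tested further.

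**Figure D3:**
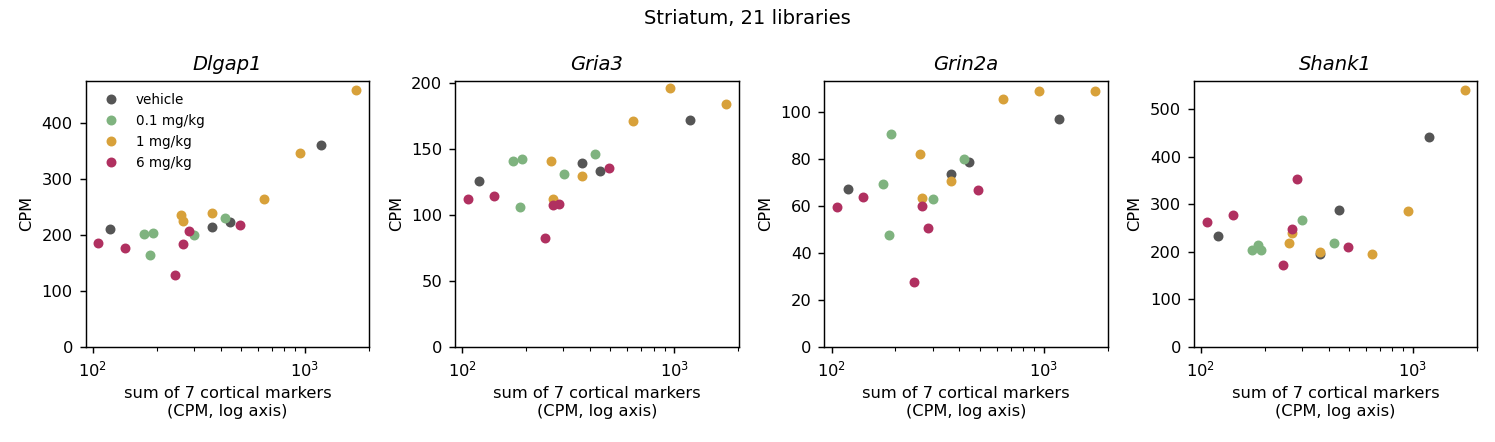
Levels of Dlgap1, Gria3, Grin2a and Shank1 in the 21 striatum libraries against the sum of 7 cortical neuron markers, both in CPM, with a log axis for the marker sum. Colours give the dose group. Dlgap1 climbs with the marker sum, whereas the 2 highest Shank1 levels are in the 2 libraries with the highest sums.

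In the prefrontal cortex no member passed at any dose in edgeR, where the comparisons with vehicle all share the same 4 vehicle libraries. At 6 mg/kg against vehicle 0 of 33 members were called by edgeR, as were 0% of the 14838 genes tested. At an unadjusted p below 0.05 there were 3 members, all lower, or 9.1% against 9.27% of all genes (4.28% higher, 4.99% lower), and DESeq2 called 25 genes but 0 members. The median log2 fold change was -0.12 over the members, with 26 of 33 below 0, and 0.00 over all genes. Its Spearman correlation with transcript length was -0.5 over the members and -0.31 over 14141 genes. The members were longer, with a median of 5546 against 3479 bases, and the part of length in this shift was not tested. In the same libraries the summed level of the 7 cortical glutamatergic markers was 1965 to 2470 CPM in vehicle (median 2332) and 1498 to 2153 CPM at 6 mg/kg (median 2054), and that of the 6 oligodendrocyte markers 2184 to 3290 CPM (median 2553) and 2995 to 3500 CPM (median 3097). Both pairs of ranges overlapped, and their part in the members' values was not tested. The counts at an unadjusted p below 0.05 were 3 members at 1 mg/kg (8.29% of all genes) and 5 at 0.1 mg/kg (6.43% of all genes). DESeq2 and edgeR called no member at these doses either, and edgeR called 0% of all genes at both.

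Shank1, the postsynaptic scaffold, had the smallest p at 6 mg/kg in the prefrontal cortex. Its 4 vehicle libraries were at 617, 439.5, 538 and 460.2 CPM, and the 6 high-dose libraries ranged from 353 through a median of 390.0 to 486.5 CPM. All 6 lay below the vehicle mean but the groups overlapped, and the log2 fold change was -0.35 ± 0.13 (adjusted p = 0.419, edgeR). Grm8 was at 19.4, 19.9, 14.7 and 18.4 CPM in vehicle and at 9.83, 14.1 and 17.4 CPM as the lowest, median and highest of the high dose (-0.39 ± 0.16, adjusted p = 0.461, edgeR). Grik3, a kainate subunit, was at 141, 205, 173 and 156.5 CPM against a high-dose range of 93.5 to 167 CPM with a median of 131 CPM (-0.37 ± 0.16, adjusted p = 0.470, edgeR). With the offset for GC content and length Shank1 was at -0.124 and Grik3 at -0.181. In the upward direction the smallest p-values belonged to Homer1 (0.07 ± 0.14), Grin2d (0.05 ± 0.12) and Grm4 (0.05 ± 0.14), all with overlapping groups and unadjusted p from 0.599 to 0.712 (edgeR). Homer1 was at 274, 332, 269 and 319.6 CPM in vehicle and at 226, 320.2 and 396 CPM (lowest, median, highest) at 6 mg/kg. Grin2d spanned 22.3 to 33.9 CPM at 6 mg/kg and 25.8 to 29 CPM in vehicle, and Grm4 spanned 45.6 to 74.2 CPM and 39 to 74.8 CPM.

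Intermediate doses in the prefrontal cortex gave no call either. At 1 mg/kg the smallest p in each direction belonged to Grin2a (-0.34 ± 0.12, adjusted p = 0.588, edgeR) and Cacng8 (0.14 ± 0.10, adjusted p = 0.606, edgeR). At 0.1 mg/kg Homer1 was higher by 0.40 ± 0.15 (adjusted p = 0.742, edgeR), with 299.2 to 506 CPM against 269 to 332 CPM in vehicle, and Grin3a was lower by -0.31 ± 0.14 (adjusted p = 0.742, edgeR). With the offset for GC content and length Grin2a became -0.075 and Grin3a -0.151, and with 1 surrogate variable -0.189 and -0.130. Between 6 and 0.1 mg/kg 0 members passed in edgeR (0.108% of all genes), with 5 at an unadjusted p below 0.05 (10.1% of all genes), led by Shank1 (-0.31 ± 0.12), Homer1 (-0.33 ± 0.13) and Dlg4 (-0.17 ± 0.07). DESeq2 called 0 members there, whereas Homer1 alone passed with an offset for GC content and length (adjusted p = 0.0125) and with 1 surrogate variable (adjusted p = 0.0225). In those fits 0.209% and 1.11% of all genes passed. Over its 11 left-out libraries and other alternatives the Homer1 difference stayed negative. The higher values in that contrast were Grm5 (0.19 ± 0.18), Grik2 (0.17 ± 0.17) and Grik1 (0.15 ± 0.16), none with an unadjusted p below 0.05.

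Slopes over dose were fitted in the prefrontal cortex against dose rank and against mg/kg. Against rank, 0 members passed in edgeR (0.0202% of all genes) and 4 had an unadjusted p below 0.05 (9.79% of all genes), with Shank1 at -0.12 ± 0.04 and Grm2 at 0.04 ± 0.06 log2 units per rank. Against mg/kg, again 0 members passed in edgeR (0.0404% of all genes) and 4 had an unadjusted p below 0.05 (10.3% of all genes). Shank1 (-0.05 ± 0.02), Dlg4 (-0.02 ± 0.01) and Cacng8 (-0.03 ± 0.01) had the smallest p of the negative slopes per mg/kg. Grik2 (0.02 ± 0.02), Grm4 (0.01 ± 0.02) and Grm5 (0.01 ± 0.03) led the positive ones. DESeq2 called 0 members in both fits. Homer2 passed with the GC slope covariate, at -0.47 for 6 mg/kg against vehicle (adjusted p = 0.0317, edgeR), -0.14 per rank (adjusted p = 0.0482, edgeR) and -0.07 per mg/kg (adjusted p = 0.0317, edgeR). In those fits 0.863%, 0.863% and 0.559% of all genes passed. Without the covariate Homer2 was at -0.30 ± 0.17 for 6 mg/kg against vehicle (adjusted p = 0.617, edgeR).

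In the striatum the members were first compared dose by dose. At 6 mg/kg against vehicle 0 of 33 members were called by edgeR, with 0% of the 15118 genes tested. An unadjusted p below 0.05 was reached by 7 members, 1 higher and 6 lower, or 21.2% against 15.7% of all genes (7.48% higher, 8.24% lower). DESeq2 called 31 genes and 0 members. The members' median log2 fold change was -0.14 (23 of 33 below 0) and that of all genes 0.01. At 1 mg/kg 2 members had an unadjusted p below 0.05 (7.36% of all genes), and at 0.1 mg/kg none did (2.53% of all genes). Neither edgeR nor DESeq2 called a member at these doses, and edgeR called 0% of all genes at both. Grm4 (-0.31 ± 0.13) and Grik1 (0.34 ± 0.17) had the smallest p in their directions at 1 mg/kg, and Dlgap1 (-0.34 ± 0.20) and Homer1 (0.22 ± 0.17) at 0.1 mg/kg. Without vehicle animal 8 Dlgap1 was at -0.114, and without vehicle animal 7 Grm4 was at -0.152. Without the libraries of high cortical marker level Dlgap1 was at -0.115, Grm4 at -0.473 and Grik1 at 0.542, and with the offset for GC content and length Grm4 was at -0.106.

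Fitted as a slope over mg/kg in the striatum, 6 members passed in edgeR, 4 with a negative and 2 with a positive slope. This was 18.2% of the members, against 12.3% of the 15118 genes tested, of which 6.38% had a positive and 5.93% a negative slope. The slope passed for Gria2, Gria3, Homer1 and Homer2, with negative values, and for Grin2d and Homer3, with positive ones. The slopes rested on the high dose: mean Gria2 was 475, 486, 496 and 375 CPM from vehicle to 6 mg/kg, mean Homer1 was 184, 214, 198.5 and 147 CPM, and mean Grin2d was 54.4, 50.3, 47.3 and 70.1 CPM. Up to 1 mg/kg these 3 means thus lay on the opposite side of vehicle. The sum of 6 oligodendrocyte markers was 4026 to 6197 CPM in vehicle striatum, 4276 to 6552 CPM at 0.1 mg/kg, 4245 to 10320 CPM at 1 mg/kg and 6079 to 8592 CPM at 6 mg/kg. The sum of 8 markers of striatal projection neurons was 2978 to 6391 CPM in vehicle (median 4118), 3061 to 5315 CPM at 0.1 mg/kg (median 4424), 2687 to 5604 CPM at 1 mg/kg (median 3099) and 3680 to 6452 CPM at 6 mg/kg (median 5082). Within each list the ranges overlapped, and the part of these cells in the members' slopes was not tested. At an unadjusted p below 0.05 there were 16 members, 4 with a positive and 12 with a negative slope, where 30% of all genes reached that value (15% in each direction). Of the groups, the AMPA subunits had 2 of 4 called, both with a negative slope, and the Homer scaffolds 3 of 3. The NMDA subunits had 1 of 6 called, and the kainate, metabotropic, delta, TARP and other scaffold genes none.

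Gria2, which sets the calcium permeability of AMPA receptors, was at 468, 497, 458 and 478 CPM in the vehicle striatum. At 0.1 mg/kg the 5 libraries gave 517, 496, 456, 389.6 and 572.5 CPM, at 1 mg/kg they ranged from 446 through a median of 461.5 to 609 CPM, and at 6 mg/kg from 244 through 397 to 433 CPM. Every high-dose library lay below every vehicle library, and animal 54 stood at the bottom. The Gria2 slope was -0.06 ± 0.02 log2 units per mg/kg (adjusted p = 0.0227, edgeR), which is -0.39 over 6 mg/kg, while the direct comparison of 6 mg/kg with vehicle gave -0.34 ± 0.13 (adjusted p = 0.235, edgeR). The slope call was lost with the GC and length offset (-0.005, adjusted p = 0.868, edgeR) and with the GC slope covariate (-0.038, adjusted p = 0.428, edgeR). Gria3, another AMPA subunit, was at 139.7, 126, 133 and 172 CPM in vehicle and 82.7, 110.4 and 136 CPM (lowest, median, highest) at 6 mg/kg. Its mid-dose libraries ranged from 112 to 196 CPM and its low-dose libraries from 106 to 147 CPM. All 6 high-dose values were below the vehicle mean, with overlap, and the slope was -0.06 ± 0.02 per mg/kg (adjusted p = 0.0435, edgeR, called in 11 of 21 fits with 1 library left out), against -0.37 ± 0.14 at 6 mg/kg over vehicle (adjusted p = 0.238, edgeR). Gria3 was one of the 2 members that passed by Pearson's r against the cortical markers, whose sum was 106 to 492 CPM at 6 mg/kg and 120.1 to 1184 CPM in vehicle. Without the 4 libraries of high marker level its slope was -0.05 (adjusted p = 0.0499), and with a marker score as a covariate it was -0.045 (adjusted p = 0.0697), both by edgeR.

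Homer1 was at 177, 165.5, 181 and 213 CPM in the vehicle striatum and at 228, 224.5, 209.1, 156 and 253 CPM at 0.1 mg/kg. The mid-dose libraries ranged from 157 through 183 to 252 CPM, and the high-dose libraries from 116 through 140.5 to 209 CPM. At 6 mg/kg 5 of 6 libraries lay below the vehicle range and animal 52 lay inside it. The slope was -0.08 ± 0.02 per mg/kg (adjusted p = 0.0256, edgeR). Homer1 was also the only member called between 6 and 0.1 mg/kg in the striatum (-0.54 ± 0.15, adjusted p = 0.0487, edgeR), where 2.91% of all genes were called, 1.66% higher and 1.25% lower, and 6 members had an unadjusted p below 0.05 (22.3% of all genes). That call held in 2 of 11 fits with 1 library left out, with adjusted p from 0.0308 to 0.160. It was lost with the GC and length correction (-0.295, adjusted p = 0.388, edgeR) and with the GC slope covariate (-0.492, adjusted p = 0.520, edgeR). Homer2, another scaffold of this family, was at 25.6, 48.1, 31.7 and 45.1 CPM in vehicle, 27.8 to 50.3 CPM at 1 mg/kg and 14.6, 26.6 and 40.6 CPM (lowest, median, highest) at 6 mg/kg. The groups overlapped, and the slope was -0.09 ± 0.03 per mg/kg (adjusted p = 0.0344, edgeR, called in 15 of 21 fits with 1 library left out). At 6 mg/kg against vehicle Homer2 was at -0.51 ± 0.20 (adjusted p = 0.240, edgeR). Homer3 ran the other way, from 23.5, 20.5, 22.8 and 21.1 CPM in vehicle to 21.5, 25.5 and 34.4 CPM at 6 mg/kg (0.04 ± 0.01 per mg/kg, adjusted p = 0.0499, edgeR). Its call held in 3 of 21 fits with 1 library left out. In edgeR it was also lost with DESeq2 size factors (adjusted p = 0.053), without the filter on low counts (0.0688), with the marker score covariate (0.0507) and without the 4 libraries of high marker level (0.0829). At 6 mg/kg against vehicle Homer3 was at 0.26 ± 0.11 (adjusted p = 0.263, edgeR).

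Grin2d was at 44.9, 67.4, 55.1 and 50.1 CPM in the vehicle striatum and 36.1 to 60.5 CPM at 1 mg/kg. The high-dose libraries ranged from 39.6 through 72.4 to 90.6 CPM, with 5 of 6 above every vehicle library and animal 52 below all of them. Its slope was 0.08 ± 0.02 per mg/kg (adjusted p = 0.0273, edgeR), and 6 mg/kg against vehicle gave 0.37 ± 0.18 (adjusted p = 0.319, edgeR). The Grin2d slope call was lost with the GC and length offset (0.037, adjusted p = 0.490, edgeR) and with the GC slope covariate (0.049, adjusted p = 0.503, edgeR). Grik5, a kainate subunit of high affinity, had the third smallest p of the positive slopes and did not pass (0.07 ± 0.02, adjusted p = 0.0546, edgeR). The Grik5 slope passed with DESeq2 (adjusted p = 0.0391), with 1 surrogate variable (0.00155), with the marker score covariate (0.0188) and without the 4 libraries of high marker level (0.0278), and was -0.003 with the GC slope covariate. It was at 302, 230.2, 418 and 365 CPM in vehicle and 349 to 510.0 CPM at 6 mg/kg. Between 6 and 0.1 mg/kg, Grik5 (0.49 ± 0.17), Grin2d (0.48 ± 0.17) and Grin2c (0.39 ± 0.14) were on the higher side, and Gria2 (-0.37 ± 0.12) and Homer2 (-0.46 ± 0.19) on the lower, with adjusted p from 0.0854 to 0.149 (edgeR). With the GC and length correction these became 0.191 for Grik5, 0.188 for Grin2d, 0.130 for Grin2c, -0.059 for Gria2 and -0.236 for Homer2, and with the GC slope covariate they were 0.023 for Grik5, 0.371 for Grin2d, 0.052 for Grin2c, -0.219 for Gria2 and -0.571 for Homer2. With 1 surrogate variable, by contrast, Grik5 and Grin2c passed (adjusted p = 0.00726 and 0.0158, edgeR). Grik1, at 9.67 to 14 CPM in vehicle and 8.91, 15.1 and 17.2 CPM (lowest, median, highest) at 6 mg/kg, differed by 0.28 ± 0.17 from vehicle without passing. Grin2a is added here after its values were seen, because its high-dose libraries (27.7, 59.8 and 67 CPM as lowest, median and highest) and its vehicle libraries (67.1 to 97 CPM) did not overlap. Its slope of -0.09 ± 0.03 per mg/kg did not pass (adjusted p = 0.0550, edgeR), and Gria2 and Grin2a were the 2 of 33 members without overlap at 6 mg/kg in the striatum, where 3.74% of the 15464 genes above 1 CPM did not overlap. The Grin2a slope passed with DESeq2 (adjusted p = 0.02). The Grin2c slope, not called by edgeR, passed with DESeq2 (0.06, adjusted p = 0.0473), with 1 surrogate variable (0.07, adjusted p = 0.00367) and with the marker score covariate (0.07, adjusted p = 0.0267). Against dose rank, 0 members passed in edgeR (0% of all genes), with 4 at an unadjusted p below 0.05 (13.1% of all genes) and 0 members by DESeq2. Gria2 (-0.11 ± 0.05) and Homer3 (0.08 ± 0.04) had the smallest p per rank.

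**Figure D4:**
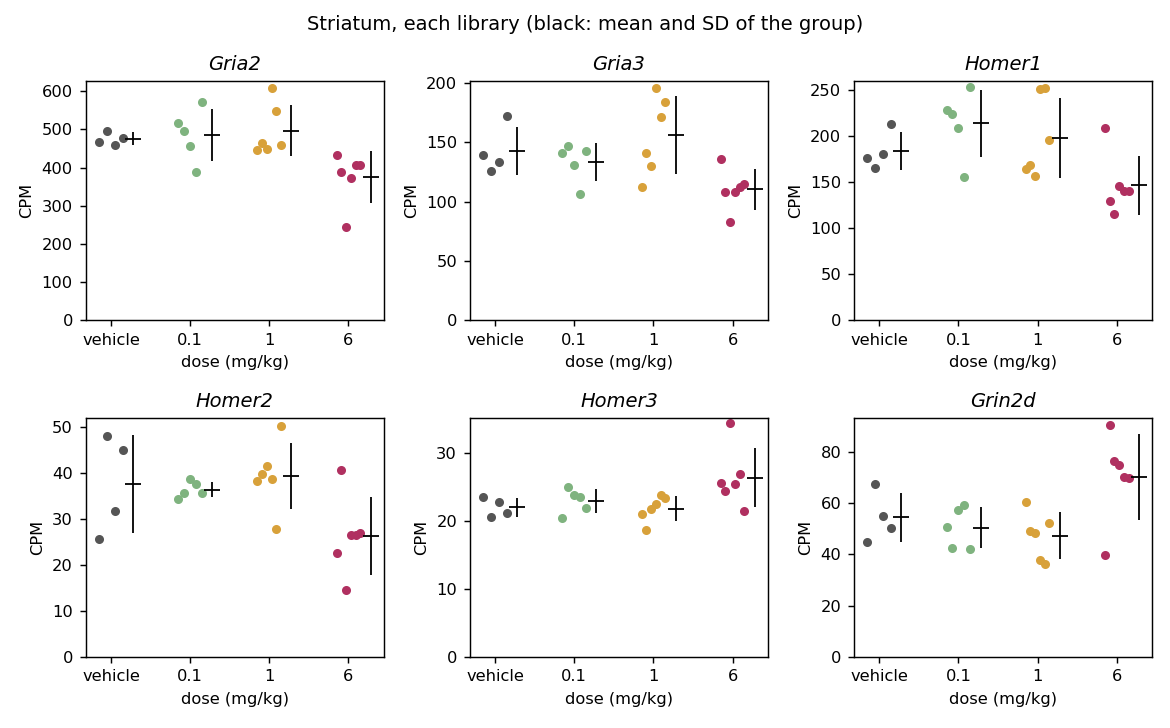
Level of the 6 members with a called slope over mg/kg in each striatum library, in CPM by dose group. Black marks give the mean and SD of a group. Gria2 at 6 mg/kg lies below all vehicle points, and in Homer1 and Grin2d 1 high-dose library, animal 52, sits apart from the other 5.

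The members' slopes were set against the GC content and length of their transcripts. Over the 33 members the Spearman correlation of the slope per mg/kg in striatum with GC content was 0.77, and over 14417 genes it was 0.62. With transcript length it was -0.59 over the members and -0.42 over all genes, and the members were longer, with a median of 5546 against 3468 bases. These are correlations across genes, which share their libraries and are not independent replicates. The 4 called members with a negative slope had a transcript GC content of 36.8% (Gria2), 36.9% (Homer1), 39.8% (Gria3) and 44.4% (Homer2), and the 2 with a positive slope 60.2% (Homer3) and 65% (Grin2d). In the prefrontal cortex the same correlation was -0.30 over the members and -0.44 over 14141 genes. When GC content and transcript length were taken out per library with an offset, none of the 6 striatal calls held, and 1 other member, Cacng8, passed, with 0.827% of all genes. The slope became -0.01 for Gria2, -0.03 for Homer1, -0.03 for Gria3, -0.05 for Homer2, 0.04 for Grin2d and -0.01 for Homer3, with adjusted p from 0.261 for Homer2 to 0.868 for Gria2. With each library's GC slope as a covariate 0 members passed in edgeR, as did 0.00661% of all genes, with adjusted p of 0.327 to 0.550 for the 6. In the striatum that GC slope was 0.298 to 0.437 at 6 mg/kg and -0.338 to -0.027 at 0.1 mg/kg, with a median of -0.444 at 1 mg/kg. It thus largely coincided with the high dose, so calls lost under this covariate cannot tell GC slope and dose apart. The slopes under this covariate were -0.093 for Homer2, -0.061 for Homer1, -0.058 for Gria3, -0.038 for Gria2, 0.049 for Grin2d and 0.025 for Homer3, so that those of Homer2 and Gria3 moved little while those of Gria2, Grin2d and Homer3 shrank by more than 1.5 times. The offset also moved the differences between 6 mg/kg and vehicle in the striatum, to -0.042 for Gria2, -0.199 for Gria3, -0.248 for Homer2 and 0.031 for Homer3. DESeq2 called 10 members, which included the 6, and 16.5% of all genes. Leaving out a single library gave 0 to 8 members, with 0 without high-dose animal 54, 1 without animal 55, 2 without animal 53 and 3 without animal 56. The share of all genes called moved in the same fits, from 2.49% without animal 54 to 15.6% without vehicle animal 7. What GC content stands for in these libraries was not tested.

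**Figure D5:**
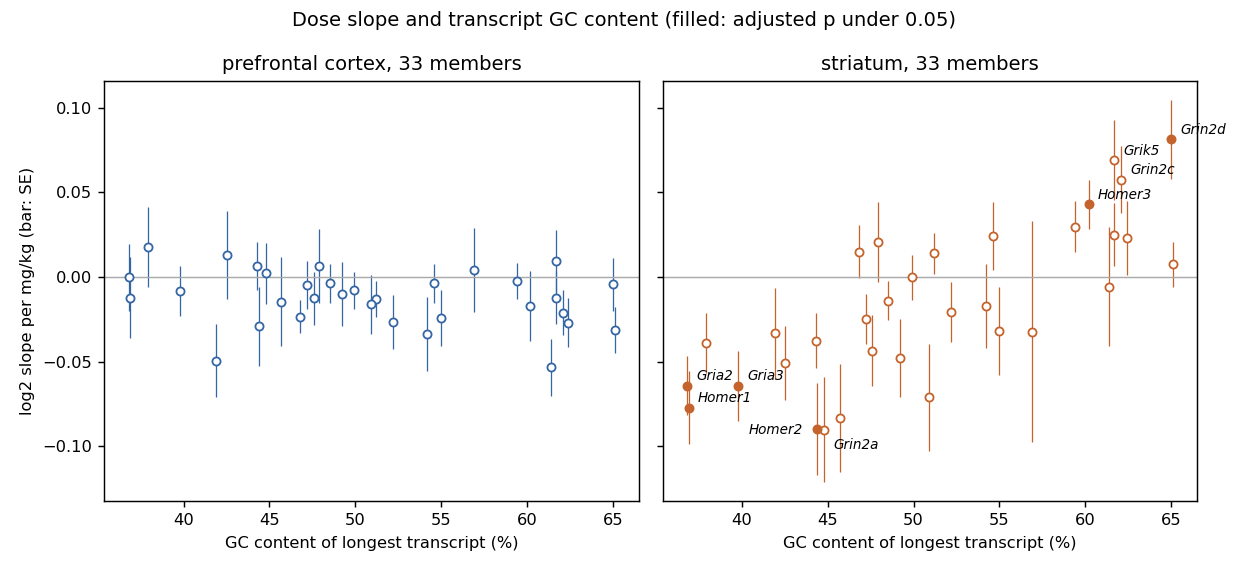
Slope of each member over dose, in log2 units per mg/kg with its standard error, against the GC content of its longest transcript in percent, for the prefrontal cortex (left) and the striatum (right). Filled points passed an adjusted p of 0.05 in edgeR. In the striatum the points climb from Gria2 and Homer1 at the lower left to Grin2d at the upper right, and no point is filled in the prefrontal cortex.

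Of the 58 other glutamate synapse genes, 10 passed for the striatal slope over mg/kg, 2 with a positive and 8 with a negative slope, or 17.2% against the 12.3% of all genes. The 3 with the smallest p were Olfm3, a secreted partner of AMPA receptors (-0.09 ± 0.02 per mg/kg), Lrrtm2, a postsynaptic adhesion protein (-0.07 ± 0.02), and Grin3b, an NMDA subunit that reduces calcium entry (0.11 ± 0.03). Their transcript GC contents were 36.7%, 38.4% and 63.4%. Dlg1, a relative of Dlg4 (-0.41 ± 0.11), and Olfm3 (-0.42 ± 0.11) were also called between 6 and 0.1 mg/kg. In the prefrontal cortex edgeR called 0 of the 58 in any dose comparison or slope, and at 6 mg/kg against vehicle 14 of them had an unadjusted p below 0.05, 2 higher and 12 lower, or 24.1% against 9.27% of all genes. Over all genes the fold change in that contrast had a Spearman correlation of -0.31 with transcript length, whose part in these 14 was not tested.

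Subunit ratios were tested within each library, since a ratio is not moved by a change in overall depth. It can still be moved by the GC and length relation where its transcripts differ. Gria1 had 48.5% GC and 5546 bases, and Gria2 36.8% and 10371 bases. With the GC and length offset, Gria2 at 6 mg/kg against vehicle in the striatum went from -0.338 to -0.042. The part of this relation in the ratios was not tested. The ratio of Gria1 to Gria2 CPM was 1.02 in the vehicle striatum and 1.24 at 6 mg/kg, with log2 ratios of 0.03 ± 0.04 (SD, n = 4) and 0.31 ± 0.18 (SD, n = 6). The log2 difference of 0.28 had a two-sided exact permutation p of 0.0286, and of 0.343 adjusted over the 12 ratio tests, so it did not pass. No ratio could have passed on its own, since the smallest p that 6 against 4 libraries allow is 0.00952, or 0.114 adjusted over 12 tests (exact permutation test), and 5 against 4 allow 0.0159, or 0.19. Grin2a to Grin2b, a ratio that rises as cortical synapses mature, was 0.32 in the vehicle prefrontal cortex and 0.24 in the vehicle striatum. No dose group passed against vehicle for this ratio (adjusted exact permutation p of 0.637 to 0.81).

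The difference between regions in the response to dose was tested directly. In edgeR 0 of 33 members passed at each dose, as did 0% of the 15402 genes tested, and DESeq2 also called 0. At 0.1 mg/kg 1 member had an unadjusted p below 0.05 (2.79% of all genes), at 1 mg/kg 2 did (6.56%) and at 6 mg/kg 0 did (6.85%). At 6 mg/kg Homer1 (-0.41 ± 0.22, adjusted p = 0.722, edgeR) and Homer3 (0.29 ± 0.19, adjusted p = 0.733, edgeR) had the smallest p in their directions. At 1 mg/kg they were Cacng8 (-0.31 ± 0.13) and Grin2a (0.53 ± 0.24), and at 0.1 mg/kg Grin2c (-0.39 ± 0.18) and Gria1 (0.18 ± 0.12). Slopes over mg/kg were not compared between the regions, so the striatal slopes of Gria2, Gria3, Homer1, Homer2, Homer3 and Grin2d are not shown to differ from those of the prefrontal cortex.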

How the data were processed

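The authors deposited raw read counts per gene, by Entrez identifier, in 1 table per tissue; per the submitters' processing notes FastQC, HISAT2 and mouse build mm10 were used. The counting tool, annotation and strand setting are not given in the sources used here. Per the labels' protocols, RNA came from TRIzol and spin columns with either poly(A) capture or rRNA removal. The liver table was not used. The members and the lists of pathway and marker genes were chosen with earlier results of these data known.

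Symbols came from RefSeq (GRCm38.p6), which named 99.97% of prefrontal cortex and 99.95% of striatum identifiers. No libraries of a group agreed within sampling noise (smallest chi-square per degree of freedom 4.84 and 2.94). Counts were fitted per region over all dose groups with edgeR 4.0.16 in R 4.3.3 (filterByExpr, trimmed mean of M values, robust quasi-likelihood F test), with the standard error as the absolute log2 fold change over the square root of F. Region contrasts and interactions used all 42 libraries in 1 fit. P-values were adjusted by Benjamini-Hochberg over all genes tested, with calls at 0.05. Levels are CPM scaled over both regions, per kb of the longest GENCODE vM21 transcript where genes are compared. Ratios used log2 CPM.

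Tested values are given for all members between regions, for the 3 members with the smallest p in each direction at 6 mg/kg (against vehicle and against 0.1 mg/kg) and for the slope over mg/kg, for 1 in each direction elsewhere, and for every member called. For pathway genes the 3 called with the smallest p are named, except for 1 that is not reported here; Dlg1 was the only other gene called beside Olfm3 in its contrast. Alternatives were median-ratio size factors, DESeq2 1.42.0, fits without the low-count filter or with a mean of at least 10 counts, a GC and length offset, 1 surrogate variable (sva 3.50.0), only the groups compared, a replicate block and leaving out each library. The GC slope covariate, the marker score covariate and leaving out striatum libraries over 600 CPM of cortical markers were chosen after seeing the data. The fits were also run on simulated counts with known changes. Those counts held no relation to GC content, length or tissue mixing, so they do not bear on these. The smallest member count in any library was 74.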

Additional observations from a re-analysis of the deposited data

Results flagged for a closer look

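In 264 sets, each 1 member in 1 dose group of 1 region, the lowest or highest library was compared with the spread of its group by Dixon's ratio. It stood apart in 22 sets, where chance alone gives about 1 in 20, or 13.2. In the high-dose striatum animal 54 was lowest for Gria2 (244 CPM), Grik2 (45.1 CPM), Grm5 (120.3 CPM) and Grm7 (32 CPM) and highest for Grik5 (510.0 CPM), and animal 52 was lowest for Grik1 (8.91 CPM) and highest for Homer1 (209 CPM). In the mid-dose striatum animal 50 was highest for Grik3 (181 CPM), Shank1 (541 CPM) and Shank2 (186.5 CPM). In the vehicle striatum animal 8 was highest for Dlgap1 (360.0 CPM) and Cacng8 (87.2 CPM) and lowest for Grm7 (44.4 CPM), and animal 7 was highest for Grm4 (125 CPM). In the low-dose striatum animal 25 was highest for Shank1 (266 CPM) and animal 28 lowest for Grm7 (42.2 CPM).

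In the high-dose prefrontal cortex animal 55 was lowest for Gria1 (290.5 CPM) and highest for Grik5 (380.0 CPM) and Homer3 (27.9 CPM). In the low-dose prefrontal cortex animal 25 was highest for Grm4 (61 CPM) and animal 29 for Shank3 (446 CPM). In the mid-dose prefrontal cortex animal 50 was highest for Grm7 (59.4 CPM). The striatal libraries of animals 8 and 50 were among the 4 with more than 600 CPM of cortical markers.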

How the results depend on the processing

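Between regions the count of 16 members lay between 14 and 18 under 7 alternatives (18.5% to 26.9% of all genes), and was 9 to 14 with 1 vehicle animal left out (10 without animal 7). With the replicate block it was 17, gaining Gria2 and Grm8 and losing Cacng2, while the offset gained Grik2 and Grin1 and the fit of only the groups compared gained Gria2, Grik2 and Grm8 and lost Cacng2; the labels do not say that numbers pair samples. Over 21 same-numbered pairs the correlation of deviations averaged 0.093, against -0.02 for other numbers of the same group. It ranged down to -0.08, with 11 pairs over 0.1, and 13 of the 21 prefrontal cortex libraries correlated best with their own number. For the striatal slope over mg/kg the 6 members (12.3% of all genes) became 10 with DESeq2 (16.5%; Grik5, Grin2a, Grin2b and Grin2c gained), 11 with 1 surrogate variable (17.9%; Cacng3, Gria4, Grik5, Grin1 and Grin2c gained), 5 with size factors (12.4%) and 5 without the filter (9.5%), both losing Homer3, 6 with the marker score covariate (13.2%; Gria3 and Homer3 lost, Grik5 and Grin2c gained), 6 without the libraries of high cortical marker level (11.9%; Homer3 lost, Grik5 gained), 1 with an offset for GC and length (0.827%), 0 with the covariate for a library's GC slope (0.00661%), and 0 to 8 with 1 library left out (2.49% to 15.6%). For 6 against 0.1 mg/kg in the striatum the 1 member (2.91% of all genes) became 2 with DESeq2 (7.3%), 4 with 1 surrogate variable (7.88%), 0 with the offset (0.324%), 0 with the GC slope covariate (0.0198%), 3 with the marker score covariate (7.35%), 2 without the libraries of high cortical marker level (4.88%), 3 with only the groups compared (4.57%), and 0 to 2 with 1 library left out (0% to 2.93%). In the prefrontal cortex 1 member instead of 0 passed with the GC slope covariate at 6 mg/kg against vehicle and in both slopes (Homer2 each time; 0.863%, 0.863% and 0.559% of all genes), and 1 for 6 against 0.1 mg/kg with the offset (0.209%) and 1 with the surrogate variable (1.11%), Homer1 in both.

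Of the 55 dose differences, slopes and interactions named, the offset made 33 smaller and 4 larger by over 1.5 times and turned the sign of 6. Of 49, the GC slope covariate made 12 smaller and 4 larger and turned 7, 1 surrogate variable made 8 smaller and 1 larger, and the marker score covariate made 3 smaller and 2 larger and turned 2. Leaving out 1 library moved 19 of the 55 in at least 1 fit. Signs turned as follows, none of them for a called value except Homer3. With the offset: Cacng8 at 1 mg/kg in the prefrontal cortex (-0.040), Grik2 there for 6 against 0.1 mg/kg (-0.004) and per mg/kg (-0.002), Homer3 in the striatum per rank (-0.00) and per mg/kg (-0.01), Homer3 (-0.065), Grik5 (-0.118), Grik4 (-0.011) and Grin2c (-0.129) between regions, and the interaction of Cacng8 at 1 mg/kg (0.041). With the GC slope covariate, in the prefrontal cortex: Homer1 at 6 mg/kg (-0.052), Grm5 (-0.134), Grik2 (-0.101) and Grik1 (-0.007) for 6 against 0.1 mg/kg, Grik2 (-0.026) and Grm5 (-0.042) per mg/kg, and in the striatum Grik5 per mg/kg (-0.003). With the marker score covariate: Grm4 in the prefrontal cortex at 6 mg/kg (-0.029) and per mg/kg (-0.002). With the replicate block: Grin2c between regions (-0.019). With 1 library left out, between regions, Grik3 ran from -0.330 to 0.013, Grik4 from -0.091 to 0.074, Grik5 from -0.059 to 0.105, Grin2c from -0.124 to 0.059, Grin3a from -0.031 to 0.208 and Grm3 from -0.046 to 0.135. In the prefrontal cortex, Grin2d and Grm4 at 6 mg/kg ran from -0.009 to 0.110 and from -0.070 to 0.268, Grm4 and Grm5 per mg/kg from -0.008 to 0.020 and from -0.002 to 0.035. The Gria1 to Gria2 log2 ratio difference ran from -0.007 to 0.159 at 6 mg/kg in the prefrontal cortex and from -0.017 to 0.053 at 0.1 mg/kg in the striatum, and that of Grin2a to Grin2b from -0.063 to 0.026 at 1 mg/kg in the prefrontal cortex and from -0.043 to 0.153 at 6 mg/kg in the striatum. The causes were not tested.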
